A study of Homo sapiens with 6 samples.

Results

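Autophagy and mitophagy genes, 39 of the 58174 genes in the expression table, were chosen by name and compared between cells transfected with miR-27a-3p mimics and cells transfected with a negative control. The list holds the machinery that builds autophagosomes, the ATG8 family and the cargo receptors that bind it, and 4 genes of mitophagy, the removal of mitochondria. A mimic is a synthetic double-stranded RNA that imitates a mature microRNA. There were 3 samples labelled with miR-27a-3p mimics and 3 with the negative control, all from cells labelled Huh-7, an established human hepatocellular carcinoma line, and RNA was taken 48 h after transfection. The stated purpose of the series is the role of this microRNA in sensitivity to cisplatin, and no label names a cisplatin treatment. Whether the samples of a group are separate cultures is not stated, and p-values then measure only sample-to-sample spread, which may be technical. Levels are FPKM, fragment numbers divided by gene length and by library size, so levels of different genes can be set side by side.

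The liver identity given by the label was not seen in these values. None of 13 hepatocyte and hepatoma markers reached a mean of 1 FPKM, and 10 of them stayed under 0.1 FPKM in every sample. The serum protein genes ALB, APOB and APOA1 and the fetal liver gene AFP were among those 10, with highest values of 0.011, 0, 0.0407 and 0.0237 FPKM. The summed level of the markers was 0.912 to 1.27 FPKM in mimic samples and 1.15 to 2.17 in control samples. Markers of basal and squamous epithelium summed to 340 to 350 FPKM in mimic samples and 205 to 224 in control samples, nearly all of it from SFN, while KRT5, KRT6A and DSG3 stayed under 0.1 FPKM. Lung, fibroblast, endothelial and leukocyte markers summed to at most 1.32, 18.3, 2.91 and 19 FPKM in any sample. The part of cell identity in the results was not tested. The mitochondrial share of summed FPKM was 14.6%, 24.3% and 38.9% in mimic samples 1, 2 and 3, and 16.9%, 18.4% and 32.8% in control samples 1, 2 and 3. Between 13007 and 13250 genes reached 1 FPKM in mimic samples and between 15109 and 15494 in control samples, and the part of this difference in the results below was not tested.

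In macroautophagy a double membrane forms around cytoplasm or an organelle and delivers it to the lysosome. The ULK kinase complex starts the process, a lipid kinase complex marks the membrane, ATG2 and ATG9 proteins supply lipid, and a ubiquitin-like conjugation system attaches ATG8 proteins to the membrane, where cargo receptors dock. In mitophagy the kinase PINK1 gathers on damaged mitochondria, while BNIP3, BNIP3L and FUNDC1 are receptors in the mitochondrial outer membrane. PINK1 has been reported as a target of miR-27 family microRNAs.

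The transfected microRNA is shown because its seed, nucleotides 2 to 8 in capitals, decides which sites in 3' UTRs pair with it. RefSeq places the natural copy at chr19:13836447-13836467 on the minus strand of GRCh38.p14.
hsa-miR-27a-3p: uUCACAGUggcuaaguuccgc

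For every gene the longest 3' UTR among the protein-coding transcripts of GENCODE 29 was searched for words that pair with this seed. ACTGTGAA is the 8mer. Its first 7 letters, ACTGTGA, are the 7mer-m8 and its last 7, CTGTGAA, the 7mer-A1. A match was found in 9 of 39 members (23.1%) and in 3310 of 11465 tested genes with such a UTR (28.9%). The median UTR length was 1615 bases for members and 1328 for tested genes. Sites of 8 members are printed below with 10 bases on either side, in the sense of the mRNA, with the match in capitals and GRCh38 positions of the printed stretch. BNIP3L, not printed, also holds a 7mer-A1. A match is a description of letters and not evidence of binding, and the annotated UTR need not be the one used in these cells.
PINK1, 7mer-A1, chr1:20650743-20650769, plus strand: tcgtgatggtCTGTGAAtggtgagggt
ATG13, 7mer-A1, chr11:46674235-46674261, plus strand: agggctccatCTGTGAAgagtctcagc
ATG2B, 7mer-m8, chr14:96284670-96284696, minus strand: tagatgcagtACTGTGAtttaccacaa
ATG10, 7mer-m8, chr5:82254966-82254992, plus strand: acaatattttACTGTGAgataatatgt
ATG4C, 7mer-m8, chr1:62864645-62864671, plus strand: gtatttgttaACTGTGAtatgcataca
TAX1BP1, 7mer-m8, chr7:27843720-27843746, plus strand: ggctcagagcACTGTGAgcccaggcaa
ATG2A, 8mer, chr11:64894850-64894877, minus strand: ggggatggccACTGTGAAggacgccttc
BNIP3, 8mer, chr10:131968282-131968309, minus strand: attaatgtctACTGTGAAaatttggtag
BNIP3, 7mer-A1, chr10:131968599-131968625, minus strand: acacagtctcCTGTGAAtcacaagata
BNIP3, 7mer-A1, chr10:131968561-131968587, minus strand: gataatttttCTGTGAAggatctatat

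In mimic samples, 4 members rose and 8 fell, and 26 of the 38 members tested did not pass the test. The test took genes whose mean over all samples reached 1 FPKM, and MAP1LC3A, one of the LC3 genes, was left out as too low. PINK1, SQSTM1, ATG13 and GABARAP rose, and ATG2B, ATG12, ULK2, WIPI1, ATG14, ATG4B, RB1CC1 and ATG4A fell. Of all 14439 tested genes, 12.0% were called higher and 39.6% lower by limma at an adjusted p under 0.05, 51.6% in all, against 10.5% and 21.1% of the members. The members are not typical in level, as 36 of the 38 had a mean of at least 5 FPKM. With the test limited to the 9456 genes at that level, 1438 genes were called higher and 2916 lower. Of the 36 members among them, 4 were called higher and 7 lower. In bulk RNA, fewer cells of a kind and less RNA per cell cannot be told apart. Only ATG2B and PINK1 differed by 1 or more on the log2 scale, and 25 members differed by less than 0.5. The groups did not overlap in 18 members (47.4%), against 60.5% of all tested genes. With 3 samples against 3, an exact two-sided permutation test of 1 gene cannot give a p below 0.1.

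The median log2 fold change was -0.02 for the members and -0.29 for all tested genes, so the direction of small differences depends on the scale. After median-of-ratios scaling, which sets the typical gene equal between samples and put the median of all genes at 0.01, the members' median was 0.29. On that scale 14 members were called higher (36.8%, against 26.9% of all genes) and 4 lower (10.5%, against 27.4%), with 54.3% of all genes called in either direction. PINK1 and ATG13 were called higher, and ATG12 lower, on the deposited scale and in all 19 alternative settings. ATG2B was called lower in all 18 settings that tested it. Its mean was under the limit of 5 FPKM used in 1 setting.

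**Figure D1:**
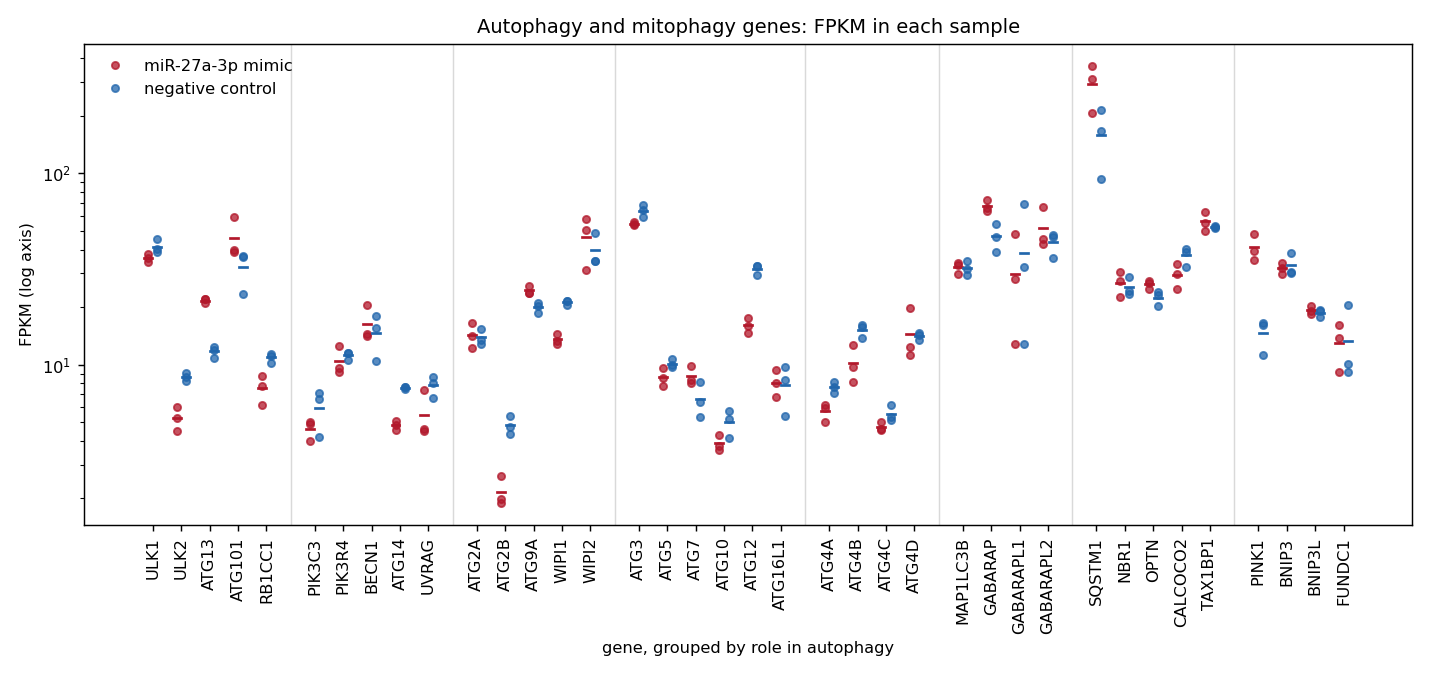
FPKM of the 38 tested members in each sample on a log axis, with mimic samples in red to the left of control samples in blue and short lines at the group means, in blocks by role. PINK1 and ATG13 have 3 mimic samples above all control samples, ATG12 and ATG2B have 3 below, and GABARAPL1 spans 12.8 to 69.3 FPKM.

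**Figure D2:**
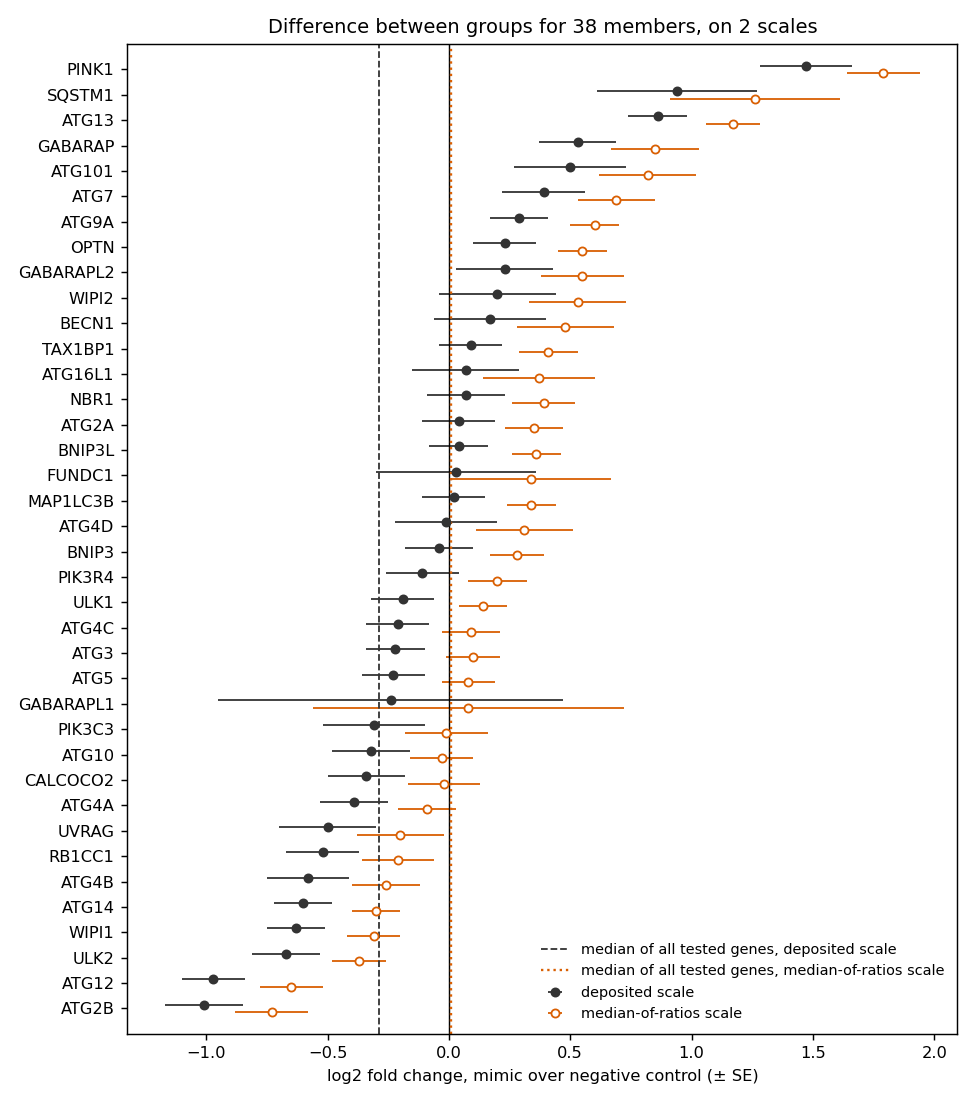
Log2 fold change of mimic over control ± SE for the 38 tested members, filled on the deposited scale and open after median-of-ratios scaling, with the median of all tested genes as a dashed and a dotted line. The members' median is -0.02 on the deposited scale and 0.29 after scaling, against -0.29 and 0.01 for all genes.

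The initiation complex held 1 member that rose and 2 that fell of 5. ATG13, the adaptor that joins the ULK kinases to their partners, lies at chr11:46617527-46674818 (hg38). It had 21, 22 and 21.9 FPKM in mimic samples and 12, 12.4 and 10.8 in control samples. All mimic samples lay above all control samples, by far more than the spread within a group, and ATG13 rose (log2 fold change 0.86, SE 0.12, limma adjusted p = 0.000698). RB1CC1, the large scaffold of the complex also called FIP200, had 6.17, 8.72 and 7.79 FPKM in mimic samples and 11.1, 11.4 and 10.2 in control samples. It fell on the deposited scale (-0.52, SE 0.15, limma adjusted p = 0.0216), but not after median-of-ratios scaling (-0.21, adjusted p = 0.278), and its sign turned after GC and length correction (0.06, adjusted p = 0.681). The call was also lost without mimic sample 1 (adjusted p = 0.0502), control sample 1 (0.0662) or control sample 2 (0.0708).

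Of the kinase genes, ULK2 had 5.29, 6.01 and 4.51 FPKM in mimic samples and 8.68, 9.08 and 8.22 in control samples. It fell on both scales, by 0.67 on the deposited log2 scale (SE 0.14, limma adjusted p = 0.00484) and by 0.37 after scaling (adjusted p = 0.0251), but not after quantile normalization (-0.30, adjusted p = 0.0538). It had -0.29 after GC and length correction (adjusted p = 0.0462). ULK1 had 38, 36.3 and 34.6 FPKM in mimic samples and 45.5, 40.1 and 38.7 in control samples. Every mimic sample was below every control sample, yet the difference did not pass the test (-0.19, SE 0.13, adjusted p = 0.252) and had the other sign after scaling (0.14). ATG101, which binds and stabilises ATG13, had 59.5, 39 and 39.8 FPKM in mimic samples and 36.7, 37.2 and 23.6 in control samples. It was called after median-of-ratios scaling (0.82, limma adjusted p = 0.012, against 0.50 and 0.103 on the deposited scale).

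In the lipid kinase complex 1 of 5 members fell and none rose. ATG14, the subunit that directs the complex to autophagy, had 5.11, 4.83 and 4.57 FPKM in mimic samples and 7.64, 7.65 and 7.5 in control samples. The 3 control values were almost equal, all mimic values lay below them, and ATG14 fell (-0.60, SE 0.12, limma adjusted p = 0.00396; -0.30 and 0.0415 after median-of-ratios scaling; -0.29 and 0.0406 after GC and length correction; -0.22 and 0.123 after quantile normalization). UVRAG, the subunit of the alternative complex of endosomes, had -0.50 (adjusted p = 0.0703), and passed without mimic sample 1 (-0.71, adjusted p = 0.00726). The catalytic subunit gene PIK3C3 had -0.31, the regulatory PIK3R4 -0.11 and BECN1, the scaffold of both complexes, 0.17, and none of these 3 passed the test on either scale. Without control sample 3, PIK3C3 passed (-0.53, adjusted p = 0.0345).

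Among the 5 genes of lipid supply and of PI3P binding, 2 fell and none rose on the deposited scale. ATG2B, a lipid transfer protein that bridges the endoplasmic reticulum and the growing membrane, lies at chr14:96279202-96363870. It had 1.9, 2.62 and 1.98 FPKM in mimic samples and 5.43, 4.34 and 4.75 in control samples. It fell to 0.448 of its control mean (-1.01, SE 0.16, limma adjusted p = 0.00133; -0.73 and 0.00556 after median-of-ratios scaling). Its log2 fold change was smaller after GC and length correction (-0.52, adjusted p = 0.0133) and after quantile normalization (-0.45, adjusted p = 0.0353). Its paralog ATG2A, of the same function, had 16.5, 14.1 and 12.3 FPKM in mimic samples and 13.5, 15.4 and 12.8 in control samples, and the groups overlapped (0.04, adjusted p = 0.858). ATG2A had 0.35 after median-of-ratios scaling and was called higher there (adjusted p = 0.0399).

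WIPI1, a PI3P-binding protein, had 14.4, 12.8 and 13.4 FPKM in mimic samples and 20.6, 21.5 and 21.4 in control samples, with no overlap. It fell on the deposited scale (-0.63, SE 0.12, limma adjusted p = 0.00299) and had -0.31 after median-of-ratios scaling (adjusted p = 0.0503). It was called lower after GC and length correction (-0.46, limma adjusted p = 0.0092) and after quantile normalization (-0.46, 0.0118). WIPI1 shares 24.3% of its annotated exon bases with ARSG on the opposite strand. ARSG had 5.69, 6.15 and 8.82 FPKM in mimic samples and 15.7, 16.5 and 16 in control samples. The strand setting of the counting is not given, so reads of both genes cannot be told apart there. ATG9A, the membrane protein of the vesicles that seed autophagosomes, had 0.29 (adjusted p = 0.0831) and was called higher after median-of-ratios scaling (0.60, 0.00235). WIPI2, which recruits ATG16L1, had 0.20 with an SE of 0.24.

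The conjugation system held 1 member that fell and none that rose of 6 on the deposited scale. ATG12, the ubiquitin-like protein that is joined to ATG5, lies at chr5:115828200-115841858. It had 14.6, 17.6 and 16 FPKM in mimic samples and 33, 29.5 and 32.8 in control samples. The lowest control sample was well above the highest mimic sample, and ATG12 fell to 0.505 of its control mean (-0.97, SE 0.13, limma adjusted p = 0.00054; -0.65 and 0.00464 after median-of-ratios scaling; -0.36 and 0.0185 after GC and length correction). ATG12 shares 4.3% of its exon bases with AP3S1 on the opposite strand. AP3S1 had 33.7, 41.8 and 24.3 FPKM in mimic samples and 64, 57.9 and 41.6 in control samples. The part of its reads in the ATG12 values was not tested. ATG5 itself had -0.23, and ATG3, the conjugating enzyme for ATG8 proteins, had -0.22, each with no overlap between groups and neither past the test. ATG7, the activating enzyme of both conjugations, had 0.39 (adjusted p = 0.0918) and was called higher after median-of-ratios scaling (0.69, 0.00949), as it was without control sample 1 (0.54, 0.0412). ATG7 shares 18.1% of its exon bases with VGLL4 on the opposite strand. ATG16L1, which places the conjugate on the membrane, had 0.07, and ATG10, the conjugating enzyme for ATG12, had -0.32. ATG10 shares 6.9% of its exon bases with RPS23 on the opposite strand. RPS23 was far more abundant, with 329, 274 and 199 FPKM in mimic samples and 202, 197 and 164 in control samples. Without a known strand setting, the ATG10 values may hold reads of RPS23.

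The ATG4 proteases trim ATG8 proteins before conjugation and release them afterwards. ATG4B had 12.6, 9.79 and 8.16 FPKM in mimic samples and 16.2, 15.8 and 13.8 in control samples, and fell on the deposited scale (-0.58, SE 0.17, limma adjusted p = 0.0232). ATG4A had 6.17, 5.95 and 5.04 FPKM in mimic samples and 7.65, 7.1 and 8.12 in control samples, and also fell (-0.39, SE 0.14, limma adjusted p = 0.0413). Both groups of samples were apart for each gene. Neither passed after median-of-ratios scaling (-0.26 with adjusted p = 0.141 for ATG4B, -0.09 with 0.565 for ATG4A). After GC and length correction ATG4B was called lower (-0.52, limma adjusted p = 0.0127) and ATG4A was not (-0.02, 0.879). Neither passed after quantile normalization (-0.35 with limma adjusted p = 0.0645 for ATG4B, -0.02 with 0.885 for ATG4A). Leaving out 1 sample kept the call in 2 of 6 cases for ATG4B, with the largest adjusted p of 0.0739 without control sample 1, and in 1 of 6 for ATG4A, with 0.117 without control sample 3. ATG4C had -0.21 and ATG4D -0.01, and neither passed.

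Of the ATG8 family, whose members tether cargo to the membrane, GABARAP alone passed on the deposited scale. It had 63.5, 66.1 and 72.6 FPKM in mimic samples and 39, 46.8 and 54.6 in control samples, with all mimic samples above all controls. It rose (0.53, SE 0.16, limma adjusted p = 0.0202; 0.85 and 0.0061 after median-of-ratios scaling), with adjusted p from 0.0545 to 0.0898 without mimic sample 2 or 3 or control sample 1 or 2, 0.0641 after quantile normalization and 0.068 with mitochondrial genes out of the totals. MAP1LC3B, the LC3 gene used as the usual marker of autophagosomes, had 33.4, 34.1 and 29.8 FPKM in mimic samples and 31.5, 35 and 29.4 in control samples. The groups overlapped almost wholly (0.02, SE 0.13, adjusted p = 0.898), and it was called higher only relative to the shift of all genes (0.34, adjusted p = 0.0225 after median-of-ratios scaling). GABARAPL2 had 0.23 (adjusted p = 0.368) and 0.55 after that scaling (adjusted p = 0.0262).

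GABARAPL1 varied most within groups, with 48.5, 12.8 and 27.9 FPKM in mimic samples and 32.6, 69.3 and 12.8 in control samples. Its SE was 0.71 on the log2 scale, and no difference was detectable (-0.24, adjusted p = 0.797). MAP1LC3A was listed at 0, 0.0253 and 0 FPKM in mimic samples and 0, 0 and 0.0719 in control samples. Within a sample, shares of the summed family FPKM do not depend on scaling between samples. GABARAP made up 30%, 41.7% and 41.9% of it in mimic samples and 26.1%, 23.5% and 41% in control samples, and GABARAPL1 22.9%, 8.06% and 16.1% in mimic samples and 21.7%, 34.9% and 9.62% in control samples. The shares of both genes overlapped between groups. GABARAP shares 30.5% of its exon bases with ENSG00000262526 on the same strand, which had 16.7, 17.2 and 23.6 FPKM in mimic samples and 33.4, 31.4 and 33.3 in control samples, lower in mimic where GABARAP was higher. How reads of the shared stretch were divided was not tested. GABARAPL1 and MAP1LC3B have near-identical copies, and the assignment of reads to these 3 genes is uncertain.

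Among the cargo receptors SQSTM1, which encodes p62 and binds ubiquitinated cargo, was the most abundant in every sample. It lies at chr5:179806398-179838078 and had 207, 365 and 313 FPKM in mimic samples and 93.5, 214 and 168 in control samples. Mimic sample 1 lay below control sample 2, so the groups overlapped. SQSTM1 rose on the deposited scale (0.94, SE 0.33, limma adjusted p = 0.0461; 1.26 and 0.0189 after median-of-ratios scaling). The call was lost without mimic sample 2 (adjusted p = 0.143) or 3 (0.114), without control sample 1 (0.111, log2 fold change 0.60) or 3 (0.0817), and without sample 3 of both groups (0.158). It was also lost after quantile normalization (0.0904), with no filter on low values (0.0984) and when totals omitted mitochondrial genes (0.0704). Adding replicate number to the fit as a block kept the call, with a smaller limma adjusted p of 0.00199. SQSTM1 shares 20.7% of its exon bases with MRNIP on the opposite strand, which had 23.5, 19.1 and 15.6 FPKM in mimic samples and 75.7, 67.5 and 66.5 in control samples.

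The other 4 receptors did not pass on the deposited scale. CALCOCO2, also called NDP52, had 24.9, 33.7 and 29.6 FPKM in mimic samples and 39, 40.4 and 32.6 in control samples (-0.34, adjusted p = 0.101). OPTN, a receptor of ubiquitinated mitochondria, had 0.23, TAX1BP1 0.09 and NBR1 0.07, and these 3 were called higher after median-of-ratios scaling (0.55, 0.41 and 0.39). Of the summed receptor FPKM, CALCOCO2 made up 7.4%, 6.49% and 6.66% in mimic samples and 16.8%, 11.2% and 11% in control samples, with no overlap. SQSTM1 made up 61.6%, 70.2% and 70.3% in mimic samples and 40.3%, 59.6% and 56.5% in control samples, again with no overlap. A larger share of SQSTM1 lowers the others by arithmetic. Mean shares in mimic samples were also lower for NBR1 (6.35% against 8.76%), OPTN (6.28% against 7.86%) and TAX1BP1 (13.1% against 18.3%).

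**Figure D3:**
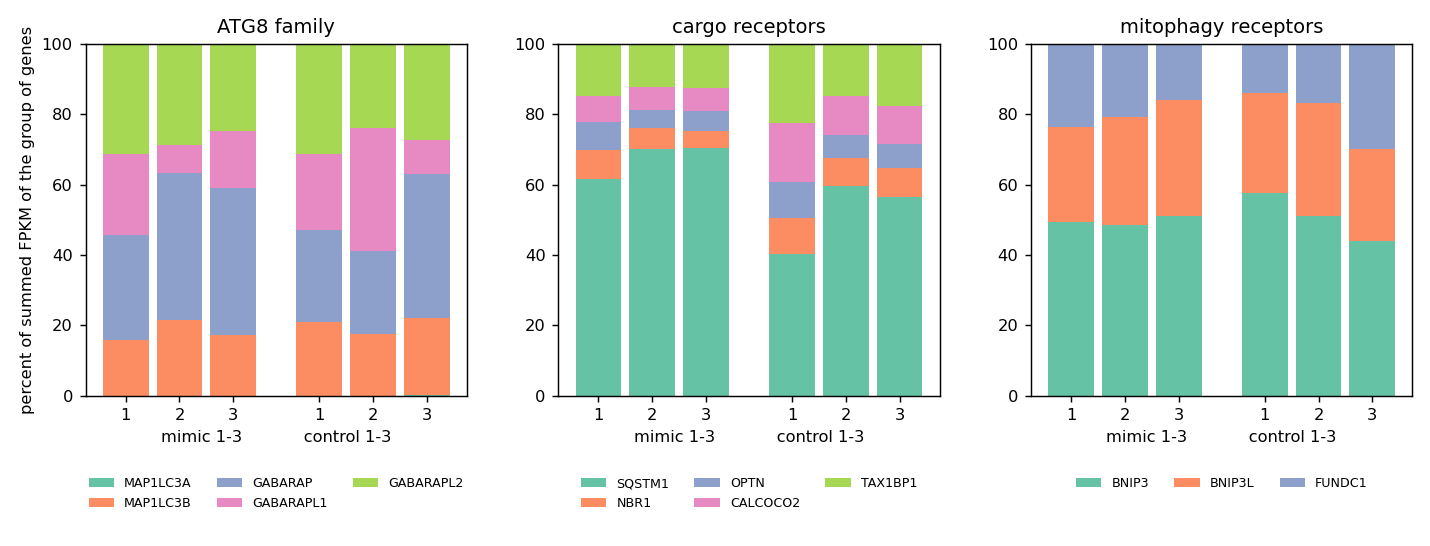
Percent of the summed FPKM of the ATG8 family, the cargo receptors and the outer-membrane mitophagy receptors in each sample, mimic samples left of control samples. SQSTM1 takes 61.6% to 70.3% of the cargo receptor total in mimic samples and 40.3% to 59.6% in control samples, and BNIP3 about the same share in both groups (49.8% ± 1.37 in mimic and 50.8% ± 6.75 in control samples, SD, n = 3 each).

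PINK1 had the largest rise of all members. This kinase of damaged mitochondria lies at chr1:20633455-20651511. It had 48.4, 39.5 and 35.4 FPKM in mimic samples and 16.2, 16.5 and 11.2 in control samples, so the lowest mimic sample was above the highest control sample. The means were 41.1 ± 6.61 FPKM in mimic and 14.6 ± 2.96 in control samples (SD, n = 3 each), a ratio of 2.81 (log2 fold change 1.47, SE 0.19, limma adjusted p = 0.000436; 1.79 and 0.000207 after median-of-ratios scaling). The log2 fold change lay between 1.29 and 1.79 over all settings. PINK1 shares 39.4% of its exon bases with PINK1-AS on the opposite strand, which had 11.5, 7.49 and 6.3 FPKM in mimic samples and 6.62, 6.12 and 4.92 in control samples. Without a known strand setting, reads of the shared stretch cannot be told apart.

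The 3 outer-membrane receptors did not pass on the deposited scale. BNIP3, which is induced by hypoxia, had 34, 32.2 and 29.7 FPKM in mimic samples and 38.4, 30.6 and 30.1 in control samples (-0.04, SE 0.14, adjusted p = 0.834). BNIP3L, also called NIX, had 18.5, 20.3 and 19.1 FPKM in mimic samples and 19.1, 19.3 and 17.8 in control samples (0.04, SE 0.12, adjusted p = 0.797; 0.36 and 0.0225 after median-of-ratios scaling). Both overlapped between groups. FUNDC1 had 16.1, 13.9 and 9.13 FPKM in mimic samples and 9.21, 10.1 and 20.5 in control samples, where control sample 3 was the highest of all 6 (0.03, SE 0.33, adjusted p = 0.946). FUNDC1 had 0.38 without control sample 3 (adjusted p = 0.23) and was called higher without sample 3 of both groups (0.61, adjusted p = 0.0277).

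Ratios between partner genes within a sample do not depend on a scaling factor per sample, but they do depend on corrections that differ between genes. These pairs were chosen after the values had been seen and carry no test. The ratio of ATG13 to its scaffold RB1CC1 was 3.4, 2.53 and 2.82 in mimic samples and 1.08, 1.08 and 1.06 in control samples. The ratio of ATG2A to ATG2B was 8.71, 5.39 and 6.22 in mimic samples and 2.48, 3.55 and 2.7 in control samples. The ratio of ULK1 to ULK2 was 6.97 ± 0.838 in mimic and 4.79 ± 0.417 in control samples. The ratio of ATG12 to ATG5, the proteins that form a conjugate, was 1.88 ± 0.31 in mimic and 3.15 ± 0.352 in control samples, and that of PINK1 to BNIP3 was 1.28 ± 0.124 in mimic and 0.444 ± 0.086 in control samples (SD, n = 3 each). None of these 5 ratios overlapped between groups as deposited. The ULK1 to ULK2 difference, 0.49 as the difference of their log2 fold changes, was 0.13 after GC and length correction and 0.14 after quantile normalization. That of ATG2A to ATG2B was 1.04 as deposited, 0.58 after GC and length correction and 0.69 after quantile normalization. The other 3 moved by less than 1.5 times under these corrections, which were applied to the ratios after the values had been seen.

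**Figure D4:**
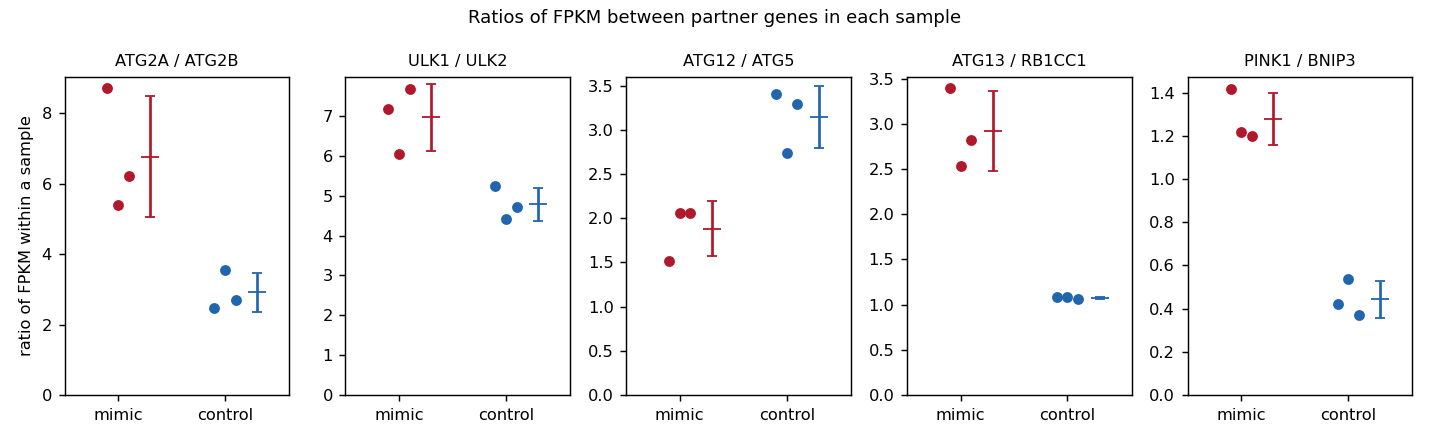
Ratio of FPKM between 5 pairs of partner genes within each sample, mimic in red and control in blue, with the mean ± SD of 3 samples beside the points. The ATG13 to RB1CC1 ratio sits at 2.53 to 3.4 in mimic samples and at 1.06 to 1.08 in control samples.

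Read against the printed sites, members with a seed match went in both directions. Of the 3 members whose longest match was a 7mer-A1, PINK1 and ATG13 rose and BNIP3L did not pass on the deposited scale. Of the 4 with a 7mer-m8, ATG2B fell, and ATG10, ATG4C and TAX1BP1 did not pass on that scale. The 2 with an 8mer, ATG2A and BNIP3, did not pass on it either, although BNIP3 carries 3 sites. Of the 30 members without a match, MAP1LC3A among them untested, 2 rose and 7 fell. Among all tested genes with an annotated UTR, 48% of those with a match were called in either direction and 46.2% of those without. Over all tested genes, the median log2 fold change was -0.31 with an 8mer, -0.27 with a 7mer-m8, -0.24 with a 7mer-A1 and -0.13 with no match. After median-of-ratios scaling these medians were -0.02, 0.04, 0.05 and 0.18 in the same order, so that their signs depend on the scale. Their ranking was lowest with an 8mer and highest with no match on both scales. A scaling factor per sample shifts all genes by nearly the same log2 amount, so this scaling could hardly change the ranking. Whether the ranking holds under GC and length correction or quantile normalization was not tested.

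**Figure D5:**
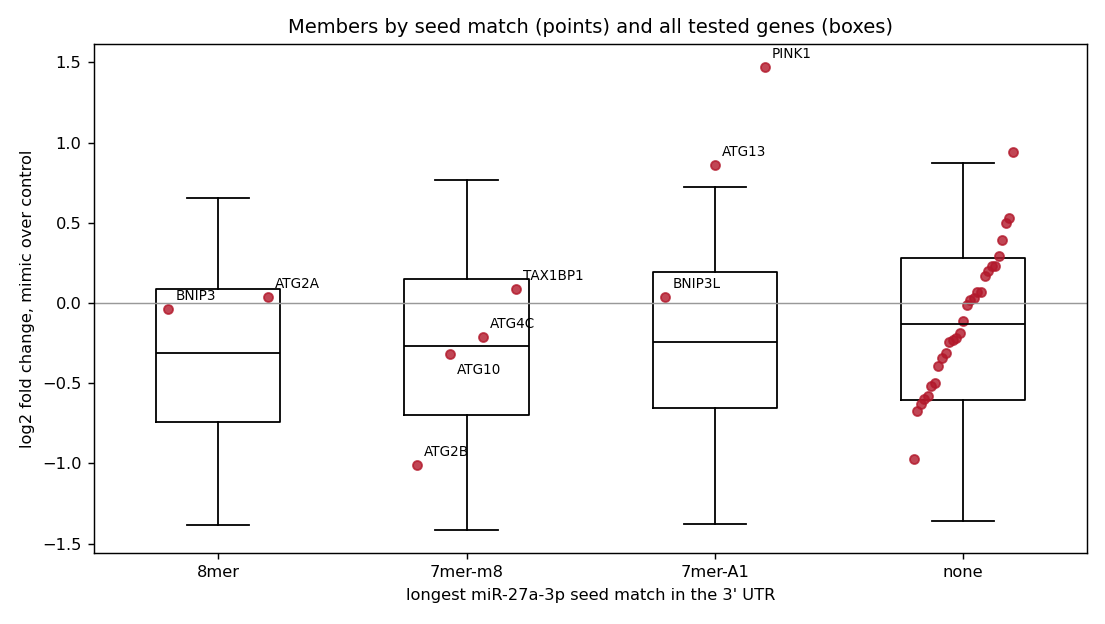
Log2 fold change of mimic over control on the deposited scale by the longest seed match in the 3' UTR, with members as points and all tested genes as boxes (quartiles, with whiskers from the 5th to the 95th percentile). PINK1 and ATG13 lie above the upper whisker of the 7mer-A1 box, and BNIP3 and ATG2A lie near 0 among genes with an 8mer.

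Related genes, listed by function, were counted in the same fit. Of 10 transcriptional regulators, 3 rose and 3 fell (6 and 0 after median-of-ratios scaling). Here and in the further lists, such counts stand beside 12.0% of all tested genes called higher and 39.6% lower on the deposited scale, and 26.9% and 27.4% after scaling. TFEB, a master regulator of lysosomal and autophagy genes, had 8.2, 6.19 and 5.85 FPKM in mimic samples and 3.49, 3.76 and 3.74 in control samples, and rose (0.79, SE 0.16, limma adjusted p = 0.0037). Its relative TFE3 rose as well (0.51, SE 0.12, limma adjusted p = 0.00944), and FOXO1 fell (-0.59, SE 0.13, limma adjusted p = 0.00648; -0.31 and 0.0994 after scaling).

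TFEB and TFE3 bind E-boxes with the core CACGTG, so this word was searched on both strands from 250 bases before to 50 after the gene start in the RefSeq promoter table (GRCh38.p14), which held 33 of the 39 members. It was found in 3 members (9.09%) and in 7.23% of all 34943 promoters. These stretches are printed in the sense of the gene with the word in capitals.
ATG3, chr3:112561932-112562000, minus strand: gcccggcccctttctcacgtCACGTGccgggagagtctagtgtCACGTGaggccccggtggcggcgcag
ATG14, chr14:55411826-55411871, minus strand: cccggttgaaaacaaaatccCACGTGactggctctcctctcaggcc
BNIP3, chr10:131982032-131982077, minus strand: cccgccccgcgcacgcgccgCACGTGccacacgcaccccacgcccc
None of these 3 genes was called higher, and ATG14 fell. The FOXO word GTAAACA was in 1 member promoter (3.03%, against 3.42% of all promoters), the HIF core ACGTG, which lies within CACGTG, in 10 (30.3%, against 21.4%), and the NFE2L2 core TGACNNNGC in 3 (9.09%, against 13.3%). A missing word says only that these letters are not in this window.

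Of 31 tested genes of mTORC1 and AMPK control, 7 rose and 6 fell (9 and 5 after median-of-ratios scaling). RRAGB, a small GTPase that brings mTORC1 to the lysosome, had 3.84, 2.89 and 2.96 FPKM in mimic samples and 13.6, 12.1 and 11.4 in control samples, and fell (-1.79, SE 0.15, limma adjusted p = 7.56e-05). PRKAA2, a catalytic subunit of the energy sensor AMPK, fell (-1.38, SE 0.15, limma adjusted p = 0.00018). AKT1S1, an inhibitory subunit of mTORC1 also called PRAS40, had 56.5, 52.1 and 50.4 FPKM in mimic samples and 22.8, 24 and 24.2 in control samples, and rose (1.15, SE 0.12, limma adjusted p = 0.000177). All 3 kept their direction and call after median-of-ratios scaling.

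Of 11 tested further core genes, 2 rose and 4 fell (2 and 3 after scaling). The lipid scramblase genes VMP1 and TMEM41B, which act with ATG2 at the forming membrane, both fell. VMP1 had 38, 31.2 and 35.6 FPKM in mimic samples and 130, 127 and 154 in control samples (-1.95, SE 0.14, limma adjusted p = 4.85e-05), and TMEM41B had 4.12 ± 0.393 in mimic and 12.3 ± 1.1 in control samples (-1.47, SE 0.14, limma adjusted p = 0.000108). ATG16L2, a paralog of ATG16L1, had 4.89 ± 0.763 FPKM in mimic and 21.4 ± 6.08 in control samples (SD, n = 3 each) and fell (-2.0, SE 0.21, limma adjusted p = 0.000173). These 3 falls were called on both scales.

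Of 14 genes of fusion with the lysosome, 2 rose and 4 fell (7 and 1 after scaling). VPS18, a core subunit of the HOPS tethering complex, rose (1.14, SE 0.15, limma adjusted p = 0.000499), while VPS39, another HOPS subunit, fell (-0.89, SE 0.16, limma adjusted p = 0.00196), as did the adaptor PLEKHM1 (-0.49, SE 0.13, limma adjusted p = 0.015; -0.20 and 0.158 after scaling).

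Of 19 tested further mitophagy genes, 4 rose and 5 fell (7 and 1 after scaling). FKBP8, an outer-membrane receptor that binds LC3, had 211, 159 and 155 FPKM in mimic samples and 98, 86.5 and 77.5 in control samples, and rose (0.99, SE 0.17, limma adjusted p = 0.00177). FIS1 of the outer membrane rose (0.92, SE 0.19, limma adjusted p = 0.00381), and the fission GTPase gene DNM1L fell (-0.74, SE 0.14, limma adjusted p = 0.00333). Of 11 receptors of ER-phagy and other selective routes, 2 rose and 4 fell (3 and 2 after scaling). CALCOCO1, a paralog of CALCOCO2, had 13.9, 16.2 and 15.8 FPKM in mimic samples and 44.2, 46.3 and 47.6 in control samples, and fell (-1.56, SE 0.12, limma adjusted p = 6.43e-05). RETREG1 fell as well (-0.70, SE 0.17, limma adjusted p = 0.00987), as did CCPG1 (-0.56, SE 0.15, limma adjusted p = 0.0141; -0.25 and 0.169 after scaling).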

How the data were processed

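For 58174 genes the authors deposited FPKM, 1 value in each sample, per the file headers. FastQC, HISAT2 and hg38 are named by the submitters' processing notes. Not given in the sources used here: which program computed FPKM, whether strand was used, and which annotation. Single-sample files repeat the values of the series table.

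FPKM times transcript length, for genes with 1 transcript, piled up at 1 value per sample. If it were 1 fragment, it would imply 25.4e6 to 31.3e6 fragments in mimic and 17.1e6 to 21.3e6 in control samples. Only 11.3% to 16.9% of low values were whole multiples within 1%. The share that unrelated values would reach was not computed. The reading as 1 fragment, and with it these depths and their difference between groups, is therefore not established. The values were not treated as counts, and intervals for counting error are not given.

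Differences were tested with limma-trend (limma 3.58.1, R 4.3.3, robust moderation) on log2(FPKM + 0.5), with Benjamini-Hochberg adjustment over the 14439 genes whose mean reached 1 FPKM. That scale understates changes of low genes. The step was tested on simulated data. Median-of-ratios factors came from tested genes above 0 in every sample. Members, lists and named genes were chosen with earlier results of these data known. By rule, per-sample values are given for called members differing by at least 1 on the log2 scale, for PINK1, SQSTM1, MAP1LC3B, BNIP3 and ULK1, and for members that a share or a seed match turns on. Those of ATG101, FUNDC1 and the other called members were added after their values were seen. In related lists up to 3 called genes with the smallest p are named. Symbols of related genes were assigned through identifiers, of which 57392 matched. GENCODE 29 gave spans equal to the files' for 38 of the 39 members.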

Additional observations from a re-analysis of the deposited data

How the results depend on the processing

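Members called higher numbered 4 with the values as deposited, but 14 once median-of-ratios factors were applied, with or without the replicate block, 10 after GC and length correction and 11 with that correction and the block. Members called lower numbered 8, against 4 after median-of-ratios scaling (3 with the block added, an alternative chosen after seeing the data), 3 after quantile normalization, 4 when the block was joined to the GC and length correction, and 5 without sample 3 of both groups. The members' median log2 fold change of -0.02 was 0.29 after median-of-ratios scaling, with or without the block, and 0.27 after GC and length correction, with or without the block. Leaving out 1 sample gave 2 to 4 higher, 5 to 8 lower and medians of -0.11 to 0.03. RB1CC1 turned to 0.06 after GC and length correction, with and without the block. The causes were not tested.

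Replicate numbers are shared between groups, and the main test did not treat same-numbered samples as pairs. Their deviations from the group means had correlations of 0.18, -0.05 and 0.22 for numbers 1, 2 and 3. Those of numbers 1 and 3 were above every differently numbered pair, of which the highest was 0.13. These values do not settle whether the numbers mark pairs. The mitochondrial share was also highest in sample 3 of both groups (38.9% in mimic and 32.8% in control samples). Mimic sample 2 correlated best with control sample 3, not with its own number. With the replicate block alone, 6 members were called higher and 8 lower, with ATG7, ATG101 and UVRAG added and ATG4A lost (adjusted p = 0.0519). SQSTM1 and GABARAP kept their calls at smaller limma adjusted p (0.00199 and 0.00913, against 0.0461 and 0.0202 without the block). Over all genes the block gave 2117 higher and 5994 lower, against 1735 and 5718 without it. Pseudocounts of 0.1 and 1 and no robust moderation left the calls of the 38 members as they were. Read depth per gene is unknown, which limits statements on members with low FPKM.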
